A study of Homo sapiens with 12 samples.

Results

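The 10 genes described here mark the epithelial or mesenchymal state of KP4, an established human cell line from a pancreatic ductal carcinoma: the keratins KRT7, KRT8, KRT18, KRT19 and KRT80, the cadherins CDH1 and CDH2, the intermediate filament genes VIM and NES, and the transcription factor gene ZEB1. They were taken by symbol from a table of 36601 genes, and all 10 were among the 15376 genes tested. The set was chosen by name but with earlier results from these libraries in view. KRT80 had been selected on its fall in FK against DMSO and NES on its fall in Met+FK against DMSO, so those 2 differences are given as descriptions without a test. Cells carrying no engineered change (labelled WT) were grown in DMEM with 10% fetal bovine serum and exposed for 24 h to the vehicle DMSO, to 10 mM metformin (Met), to 5 nM FK866 (FK) or to both drugs at these doses (Met+FK). Metformin inhibits respiratory complex I and FK866 inhibits NAMPT, an enzyme that makes NAD. Ribosome-depleted total RNA was sequenced in 12 libraries, 3 per treatment. All come from a single cell line, and the labels do not say whether the 3 replicates were separate cultures, so the p-values measure the spread between these libraries only.

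Keratins build the intermediate filaments of epithelial cells from type I and type II chains that pair with each other, KRT8 with KRT18 being the usual pair of simple epithelia. KRT7 and KRT19 are the pair typical of ducts, and KRT80 is a type II keratin of epithelial cell contacts. In an epithelial-to-mesenchymal transition, E-cadherin (CDH1), which holds epithelial cells together at adherens junctions, is typically replaced by N-cadherin (CDH2). Vimentin (VIM) takes the place of keratins as the main filament protein. Nestin (NES) is a large intermediate filament protein of progenitor and regenerating cells that assembles with vimentin, and ZEB1 is a repressor that binds E-boxes of epithelial genes, CDH1 among them. Many pancreatic carcinoma lines hold both sets of genes at once.

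The libraries held 30667735 to 41052203 read pairs each. Of 8 ductal markers, SOX9 (mean normalized count 4320), SPP1 (2484), KRT7 (248), MUC1 (103) and KRT19 (33.7) had means of at least 10, EPCAM had 8.93, and CFTR was at 0 in every library. None of 6 acinar markers reached a mean of 1. The summed count of 7 fibroblast markers lay at 184 to 281 in DMSO, 91.7 to 134 in Met, 301 to 395 in FK and 101 to 147 in Met+FK, with DCN at 0 throughout, and its part in the results was not tested. In bulk RNA, fewer cells that express a gene and less of its RNA per cell cannot be told apart. The log2 value of a gene, centred on its own mean, rose with its GC content more steeply in 2 of the 3 DMSO libraries than in any other (slopes of 0.196, 0.0429 and 0.18 log2 units per 10 percentage points in DMSO), against −0.139 to 0.0801 in Met, −0.245 to 0.00266 in FK and −0.0481 to 0.0631 in Met+FK. Transcripts of the keratins, VIM and NES have a GC content of 54.3% to 62%, that of CDH1 is 48.2%, of CDH2 43.1% and of ZEB1 38.9%. Values after removing this trend are therefore given where they bear on a result.

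In hg38, as the table gives them, KRT80 (chr12:52168996-52192014, minus strand), KRT7 (chr12:52232520-52252186, plus), KRT8 (chr12:52897187-52949954, minus) and KRT18 (chr12:52948871-52952906, plus) lie in the keratin cluster of chromosome 12, KRT18 being the type I gene placed among type II genes. KRT19 (chr17:41523617-41528308, minus) lies in the type I cluster of chromosome 17. VIM (chr10:17228241-17237593, plus) and ZEB1 (chr10:31318495-31529814, plus) are on chromosome 10, NES (chr1:156668763-156677407, minus) on chromosome 1, CDH1 (chr16:68737292-68835541, plus) on chromosome 16 and CDH2 (chr18:27950966-28177130, minus) on chromosome 18.

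Promoters are shown for 3 genes of the mesenchymal side that behaved differently, ZEB1, VIM and NES. They are the 250 bases before the start site that RefSeq (GRCh38.p14) gives nearest to the start of the gene in the table, written 5′ to 3′ on the strand of the gene, with any E-box CACCTG, or CAGGTG as it reads on the other strand, in capitals.
ZEB1, chr10:31318167-31318416, plus strand: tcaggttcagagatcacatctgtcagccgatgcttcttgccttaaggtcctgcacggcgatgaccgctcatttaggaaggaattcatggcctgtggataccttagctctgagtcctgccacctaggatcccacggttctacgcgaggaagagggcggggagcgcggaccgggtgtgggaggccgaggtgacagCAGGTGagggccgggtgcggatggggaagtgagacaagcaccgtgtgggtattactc
VIM, chr10:17227991-17228240, plus strand: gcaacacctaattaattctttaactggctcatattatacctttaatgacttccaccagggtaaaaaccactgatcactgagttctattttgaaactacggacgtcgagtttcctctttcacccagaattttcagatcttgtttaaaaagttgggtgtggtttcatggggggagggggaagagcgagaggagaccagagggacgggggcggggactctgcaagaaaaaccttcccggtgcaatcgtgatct
NES, chr1:156677408-156677657, minus strand: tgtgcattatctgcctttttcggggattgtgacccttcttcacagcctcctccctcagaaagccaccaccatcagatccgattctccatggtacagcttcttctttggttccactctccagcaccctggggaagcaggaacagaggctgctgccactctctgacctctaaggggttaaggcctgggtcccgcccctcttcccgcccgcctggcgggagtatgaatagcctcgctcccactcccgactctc
Those letters occur in 17.5% of 35116 RefSeq promoter windows of this length. The ZEB1 window has 1 E-box, beginning 57 bases before the start site, which itself lies 78 bases from the start of ZEB1 in the table. The VIM, NES and CDH2 windows hold none of these letters, which says only that they are not in the 250 bases. KRT8 is in the RefSeq table at a start site 23485 bases from that of the deposited gene and is not shown.

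Divided by transcript length, the untreated cells were rich in VIM, KRT18 and KRT8 and poor in CDH1. In DMSO the mean normalized count per kilobase was 53718 for VIM, 12956 for KRT18, 1769 for KRT8, 927 for KRT80, 740 for CDH2, 173 for KRT7, 115 for ZEB1, 44.2 for NES, 40.6 for KRT19 and 5.93 for CDH1. By mean normalized count over all 12 libraries, treated ones included, VIM was the 14th most abundant of the 15376 genes, KRT18 the 372nd and CDH2 the 2452nd, whereas CDH1 ranked 12573rd and KRT19 13120th. The line thus held abundant transcripts of a mesenchymal filament and of the KRT8/KRT18 pair at the same time. The last 2 genes of the order rest on few reads, at least 21 pairs per library for CDH1 and 14 for KRT19, which limits the precision of their ratios. NES and KRT19 in DMSO did not differ beyond their spread on this scale, since both had libraries on either side of the other's mean.

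**Figure D1:**
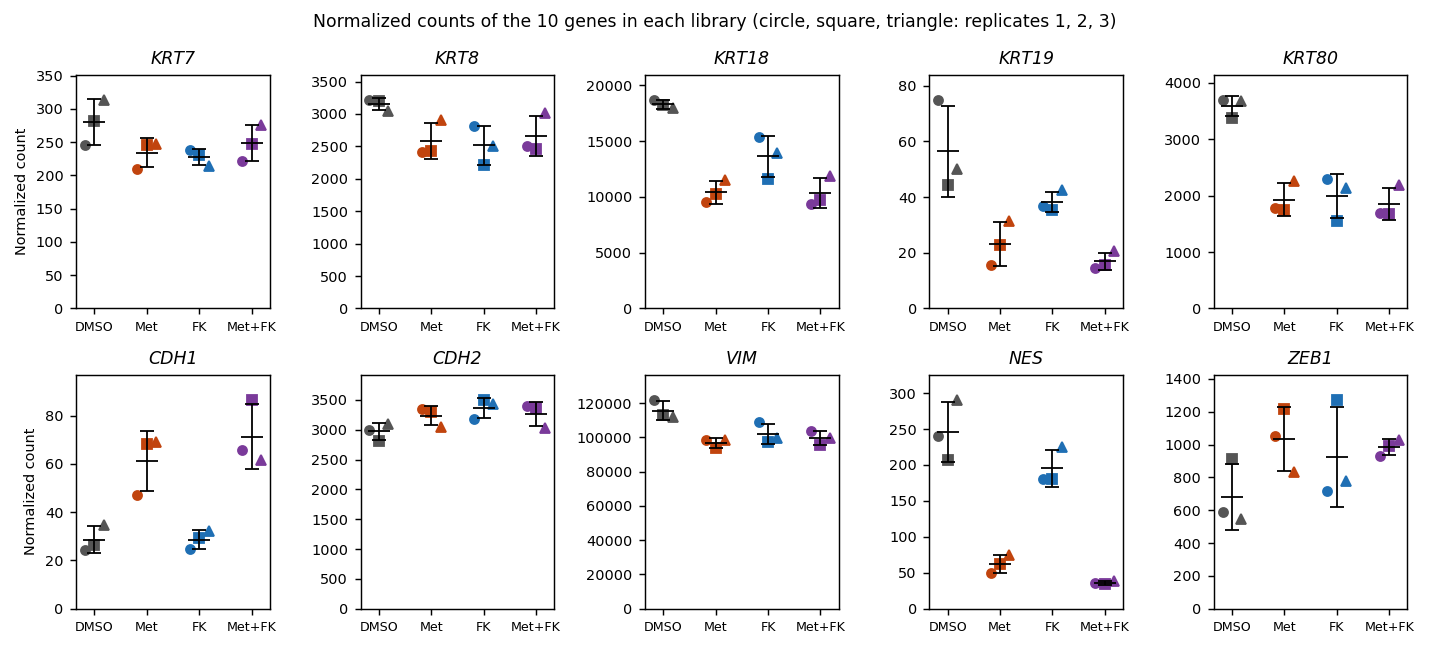
Normalized counts (y axis, from 0, a separate scale per gene) of the 10 genes in the 12 libraries, by treatment (x axis). Symbols are replicates 1 to 3 and black bars the mean ± SD (n = 3). KRT18, KRT19, KRT80, VIM and KRT8 lie lower in every treated library than in any DMSO library. The share of all genes that separate in this way was not counted. CDH1 is higher and NES lower in all 6 libraries with metformin, and the ZEB1 libraries of DMSO overlap those of Met and FK.

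KRT18, the type I chain of the simple-epithelium pair, fell with metformin, while KRT8, its type II partner, changed by much less. Normalized counts of KRT18 were 18721, 18262 and 17937 in the DMSO libraries and 9500, 10226 and 11538 in Met. In FK they were 15327, 11644 and 13933, and in Met+FK 9398, 9719 and 11883. All 9 treated libraries were below the lowest DMSO library, and the 3 FK libraries lay above those of Met but overlapped those of Met+FK. The means were 18307 ± 394 in DMSO, 10421 ± 1033 in Met, 13635 ± 1859 in FK and 10333 ± 1352 in Met+FK (SD, n = 3). In limma-trend, the log2 fold change of KRT18 was −0.82 ± 0.11 (SE) in Met against DMSO (adjusted p = 2.21e-05), −0.83 in Met+FK against DMSO (adjusted p = 1.48e-05) and −0.43 in FK against DMSO (adjusted p = 0.0226). Here a gene counts as called when its adjusted p is under 0.05 and it changed more than 1.5-fold, which is 0.585 in log2 units. KRT18 passed both in the first 2 comparisons, and in FK it passed the adjusted p without reaching the fold. After correction for GC content and length the differences were −0.61 in Met, still called, and −0.19 in FK (adjusted p = 0.0766).

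KRT8 had 3156 ± 96.3 normalized counts in DMSO, 2583 ± 277 in Met, 2517 ± 301 in FK and 2658 ± 304 in Met+FK (SD, n = 3). Each treated library was lower than each DMSO library, although the highest Met+FK library (3008) came close to the lowest DMSO library (3045). Its log2 fold change was −0.29 in Met (adjusted p = 0.0284), −0.33 in FK (adjusted p = 0.0395) and −0.25 in Met+FK (adjusted p = 0.0532), none of them past 1.5-fold. Corrected for GC content and length, KRT8 was at −0.09 in Met and −0.10 in FK, with adjusted p-values of 0.168 and 0.301. KRT8 overlaps KRT18 on the opposite strand in the annotation of the table, and GENCODE 44 names 51 pseudogenes of KRT8 and 67 of KRT18. Reads shared with these copies cannot be placed with certainty, so the values of both genes are uncertain to that extent.

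The ductal keratins were expressed at lower levels, and of the pair only KRT19 passed the test. Normalized counts of KRT19, a type I keratin of ducts, were 75, 44.3 and 50.1 in DMSO, 15.7, 22.7 and 31.5 in Met, 36.8, 35.4 and 42.5 in FK, and 14.6, 15.6 and 20.5 in Met+FK. All libraries with metformin were below all those without it, and all FK libraries below the lowest DMSO library. The log2 fold change was −1.26 ± 0.27 (SE) in Met against DMSO (adjusted p = 0.00120, limma-trend) and −1.66 in Met+FK against DMSO (adjusted p = 0.000117). In FK against DMSO it was −0.52, with an adjusted p of 0.149. KRT7, a type II keratin of ducts, had 281 ± 34.1 normalized counts in DMSO, 234 ± 21.7 in Met, 228 ± 11.8 in FK and 249 ± 27.3 in Met+FK (SD, n = 3). Its 3 FK libraries (215 to 238) lay below the lowest DMSO library (246), but Met and Met+FK overlapped DMSO. The log2 fold changes of KRT7 were −0.26, −0.30 and −0.17 for the 3 treatments in this order, with adjusted p-values of 0.0931, 0.0862 and 0.253. After correction for GC content and length KRT7 was at −0.056 in Met and −0.045 in FK (adjusted p = 0.705 and 0.843). The corrected values of KRT19 were −1.05 in Met, still called, and −0.26 in FK (adjusted p = 0.507). KRT7 shares its span with KRT86 on the same strand, at a mean of 31.7, and GENCODE 44 names 5 KRT19 pseudogenes.

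KRT80 was lower by a similar factor in all 3 treatments. Normalized counts were 3704, 3383 and 3680 in DMSO, 1788, 1739 and 2270 in Met, 2289, 1552 and 2131 in FK, and 1691, 1682 and 2183 in Met+FK. The highest treated library, at 2289, was below the lowest DMSO library, and the treated groups overlapped each other. The mean in FK was 1990 ± 388 against 3589 ± 179 in DMSO (SD, n = 3), a log2 fold change of −0.87, given as a description because KRT80 was chosen on it. In Met against DMSO the log2 fold change was −0.90 ± 0.14 (SE, adjusted p = 0.000119, limma-trend), and in Met+FK against DMSO −0.96 (adjusted p = 5.74e-05). Both comparisons use the DMSO libraries on which KRT80 was chosen. After GC and length correction the values were −0.75 in Met and −0.69 in FK. LINC00592, which overlaps KRT80 on the opposite strand, had mean counts of 23.2 in DMSO and 12.2 to 14.7 in the treatments, and reads of the pair could not be told apart here because the strand setting of the counting is not given in the sources used here.

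CDH1, encoding E-cadherin, rose in both treatments with metformin from a very low level, and CDH2, encoding N-cadherin, was not called in any comparison. CDH1 had 24.2, 26.6 and 34.8 normalized counts in DMSO and 24.5, 29.2 and 32.1 in FK, against 47, 68 and 69 in Met and 65.9, 86.5 and 61.5 in Met+FK. The 6 libraries with metformin were all above the 6 without it, while FK lay within the range of DMSO. The log2 fold change was 1.07 ± 0.22 (SE) in Met against DMSO (adjusted p = 0.000831, limma-trend), 1.29 in Met+FK against DMSO (adjusted p = 0.000168) and 0.01 in FK against DMSO (adjusted p = 0.972). With GC and length corrected, the Met value was 1.03. Even at its highest, CDH1 remained a minor transcript, at 14.8 normalized counts per kilobase in Met+FK against 812 for CDH2. CDH2 had 2970 ± 143 normalized counts in DMSO, 3237 ± 162 in Met, 3369 ± 166 in FK and 3260 ± 202 in Met+FK (SD, n = 3). The 3 FK libraries of CDH2 (3182 to 3499) were above the highest DMSO library (3103), and the other groups overlapped DMSO. Its log2 fold changes of 0.12 in Met (adjusted p = 0.181), 0.18 in FK (adjusted p = 0.0848) and 0.13 in Met+FK (adjusted p = 0.149) were all small, and the correction for GC content and length left −0.03 in Met and 0.01 in FK.

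The filament genes VIM and NES behaved differently. VIM, by far the most abundant of the 10, had 121917, 113391 and 111816 normalized counts in DMSO, and its means were 96891 ± 2808 in Met, 101978 ± 6058 in FK and 99728 ± 4047 in Met+FK (SD, n = 3). Every treated library was below every DMSO library, but by a small margin, since the highest FK library had 108865. The log2 fold change was −0.26 ± 0.06 (SE) in Met (adjusted p = 0.00348, limma-trend), −0.18 in FK (adjusted p = 0.0505) and −0.21 in Met+FK (adjusted p = 0.0101), none past 1.5-fold. The corrected values were −0.09 in Met (adjusted p = 0.266) and 0.0014 in FK (adjusted p = 0.992), so the difference was no longer significant once GC content and length were corrected. VIM is overlapped on the opposite strand by VIM-AS1 (mean 269) and AL133415.1 (mean 253), both minor beside it.

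NES had the largest log2 fold change of the 10 genes in Met and in Met+FK, the second being the difference it was chosen on. Normalized counts were 240, 207 and 291 in DMSO, 50.2, 62.4 and 75.1 in Met, 180, 180 and 225 in FK, and 35.5, 33.8 and 39 in Met+FK. FK overlapped DMSO, the Met libraries were all far below both, and the Met+FK libraries were all below those of Met. In Met+FK the mean was 36.1 ± 2.67 against 246 ± 42.1 in DMSO (SD, n = 3), a log2 fold change of −2.72, given without a test because NES was chosen on it. In Met against DMSO it was −1.96 ± 0.17 (SE, adjusted p = 5.1e-07, limma-trend) and in FK against DMSO −0.32 (adjusted p = 0.161). Correction for GC content and length moved the Met value to −1.82. Met against DMSO shares its DMSO libraries with the comparison NES was chosen on.

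ZEB1 lay close to the threshold in Met, and its libraries overlapped. Its normalized counts were 590, 909 and 544 in DMSO, 1054, 1215 and 831 in Met, 720, 1272 and 777 in FK, and 933, 988 and 1030 in Met+FK. The second DMSO library lay above 1 Met and 2 FK libraries, whereas all Met+FK libraries were above all of DMSO. In limma-trend ZEB1 was called higher in Met against DMSO, with a log2 fold change of 0.62 ± 0.21 (SE, adjusted p = 0.0225). It was not called in Met+FK against DMSO (0.57, adjusted p = 0.0339, below the fold threshold) or in FK against DMSO (0.43, adjusted p = 0.133). The call in Met was lost with GC and length correction, where the value was 0.33, with DESeq2 (0.61, adjusted p = 0.0606), and without DMSO replicate 1 (0.54), DMSO replicate 3 (0.48), Met replicate 1 (0.60) or Met replicate 2 (0.50). ZEB1-AS1, which overlaps ZEB1 on the opposite strand, had mean counts of 107 in DMSO, 159 in Met, 117 in FK and 136 in Met+FK.

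**Figure D2:**
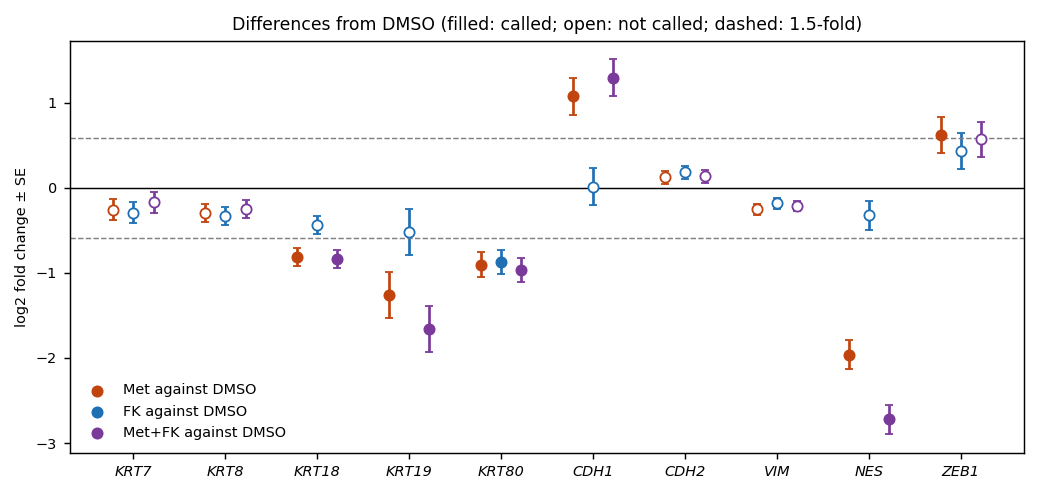
Log2 fold changes ± SE (y axis, from limma-trend) of the 10 genes (x axis) in Met, FK and Met+FK against DMSO. Filled points were called, open points were not, and dashed lines mark 1.5-fold. KRT80 in FK and NES in Met+FK were chosen on those differences, so their filled points are descriptions and no test. NES, KRT19, KRT18 and CDH1 moved in the treatments with metformin, KRT80 is lower by about the same amount in all 3, and ZEB1 lies near the 1.5-fold line.

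Counted together, 2 of the 10 genes were called higher in Met against DMSO (CDH1 and ZEB1) and 4 lower (KRT18, KRT19, KRT80 and NES), where 12.8% of all genes tested were called higher and 10.2% lower. With libraries scaled to the same total the split over all genes was 2835 higher and 1025 lower, in place of 1964 and 1566, with a median of all genes of 0.134, and 6 of the 10 genes were again called. The median log2 fold change of the 10 was −0.28, against 0.01 over all genes tested. In FK against DMSO, KRT80 was the 1 gene called lower, against 0.754% of all genes, and 0 were called higher by limma-trend, edgeR or DESeq2, against 2.73%. At an unadjusted p under 0.05, CDH2 was the 1 gene of the 10 with a positive difference, and 5 had a negative one, KRT80 among them. Over all genes, 6488 of 15376 had such a p in either direction. With GC and length correction the CDH2 difference was 0.01. Since KRT80 was chosen on this comparison, nothing is read from its count. In Met+FK against DMSO, 1 gene was called higher (CDH1), against 13.7% of all genes, and 4 lower (KRT18, KRT19, KRT80 and NES), against 11.3%. The last count includes NES, which was chosen on it. The medians of the 10 were −0.31 in FK and −0.23 in Met+FK, those of all genes −0.02 and 0.01. These medians and that of Met are not corrected for GC content and length. They include KRT80 and NES, which were chosen on falls against DMSO. With GC and length correction, the FK values other than that of KRT80 lay between −0.26 and 0.08. All 3 comparisons share the DMSO libraries, so their likeness is not independent.

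**Figure D3:**
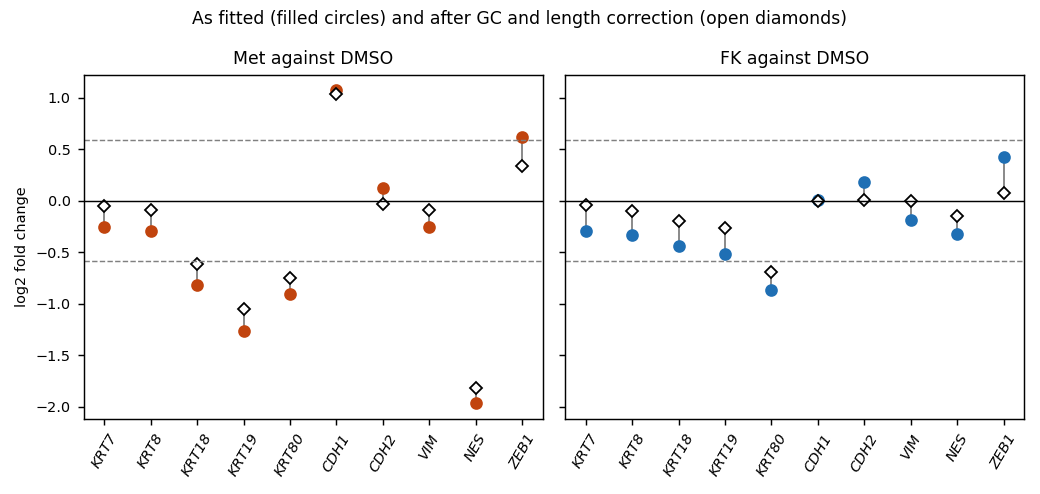
Log2 fold changes of the 10 genes (y axis) in Met (left) and FK (right) against DMSO, as fitted (filled circles) and after each library was corrected for GC content and transcript length (open diamonds). In FK the values other than that of KRT80 move to between −0.26 and 0.08, and in Met the values of CDH1, KRT18, KRT19, KRT80 and NES stay beyond 1.5-fold while that of ZEB1 falls to 0.33.

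Metformin added to FK866 changed CDH1, KRT19 and NES. In Met+FK against FK, CDH1 was higher by 1.28 ± 0.22 on the log2 scale (SE, adjusted p = 0.000248, limma-trend), the 1 of 10 genes called higher, where 9.27% of all genes were. KRT19 (−1.14, adjusted p = 0.00308) and NES (−2.40, adjusted p = 7.57e-08) were the 2 called lower, where 9.29% of all genes were. KRT18, whose libraries overlapped, had a log2 fold change of −0.40 (adjusted p = 0.00741) and did not reach 1.5-fold. Met against FK, the single drugs compared, gave the same 3 genes: CDH1 higher (1.06, adjusted p = 0.00138), against 8.08% of all genes, and KRT19 (−0.74, adjusted p = 0.0405) and NES (−1.64, adjusted p = 4.40e-06) lower, against 7.03%. The KRT19 call in Met against FK held under 7 of 13 alternatives that keep all libraries and without 1 of 6 libraries, with adjusted p-values of up to 0.184. KRT80 differed little between the drugs, at 1932 ± 293 normalized counts in Met and 1990 ± 388 in FK (log2 fold change −0.03, SE 0.14, adjusted p = 0.879). The libraries of these comparisons are also those of the comparisons with DMSO. NES was chosen on its fall in Met+FK against DMSO. Its value and its place in the count for Met+FK against FK are therefore not independent of that choice.

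In Met+FK against Met, which adds FK866 to metformin, 0 of the 10 genes were called by limma-trend, edgeR or DESeq2, where limma-trend called 0.052% of all genes higher and 0.0065% lower. NES was the 1 gene of the 10 with an unadjusted p under 0.05, where 1051 of all 15376 genes had one in either direction. It was lower in every Met+FK library (33.8 to 39) than in every Met library (50.2 to 75.1), a log2 fold change of −0.76 ± 0.17 (SE) with an adjusted p of 0.147. Replicates of the same number deviated together in Met and Met+FK (correlations of at least 0.171), though less so after GC and length correction (0.0738 to 0.159), and in a fit with the replicate number as a block NES was called lower in Met+FK against Met (adjusted p = 0.0128), where 0.0455% of all genes were called lower. The correction for GC content and length gave −0.81 (adjusted p = 0.0253). KRT80 differed by −0.06 between Met+FK and Met, and KRT18 by −0.02. NES shares its Met+FK libraries with the comparison it was chosen on.

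For the interaction, which subtracts the FK866 difference without metformin from the one with it, limma-trend called 0 of the 10 genes, where 0.0065% of all genes were called higher and 0.052% lower, and edgeR also called 0. Positive values at an unadjusted p under 0.05 were found for 5 genes: KRT7 (0.38), KRT8 (0.37), KRT18 (0.42), KRT80 (0.81) and VIM (0.22). Such a p was common, since 4695 of all 15376 genes had one in either direction. Across the alternatives that keep all libraries, the lowest values were 0.09 for KRT8, 0.14 for KRT18, 0.59 for KRT80 and 0.02 for VIM. DESeq2 called KRT80. With the replicate block 4 of these 5 genes were called, in a fit that called 15.5% of all genes higher. They were KRT8 (adjusted p = 0.0310), KRT18 (adjusted p = 0.0225), VIM (adjusted p = 0.0298) and KRT80. With GC and length correction beside the block, KRT80 (0.59) alone was called. The KRT80 value is a description, because its FK866 effect without metformin chose the gene and is part of the interaction. Nothing is read from its calls. For NES the interaction was −0.43 (SE 0.24, adjusted p = 0.229), so that a larger joint effect than the sum of the single ones was not shown.

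Ratios within a library do not depend on its depth and compare partner genes directly. Per kilobase, the ratio of KRT18 to KRT8 was 7.33 ± 0.12 in DMSO, 6.83 ± 0.19 in FK, 5.10 ± 0.19 in Met and 4.90 ± 0.15 in Met+FK (SD, n = 3). The 6 libraries with metformin (4.73 to 5.31) did not overlap the 6 without (6.63 to 7.44), and FK did not overlap DMSO, whose lowest value was 7.20. The 2 genes have a GC content of 58.2% and 59.3%, and the part of the GC trend in this ratio was not tested. They overlap on opposite strands and have pseudogenes, so the ratio is uncertain to that extent. The ratio of CDH2 to CDH1 was 127 ± 20.4 in DMSO, 142 ± 13.9 in FK, 65.5 ± 17.4 in Met and 55.8 ± 8.09 in Met+FK (SD, n = 3), again with no overlap between libraries with and without metformin. VIM exceeded NES per kilobase by 1241 ± 220 times in DMSO, 1367 ± 210 in FK, 4118 ± 877 in Met and 7159 ± 490 in Met+FK (SD, n = 3). This ratio contains the fall in Met+FK against DMSO on which NES was chosen, and is no separate result. The ratio of VIM to KRT18 was 4.14 ± 0.11 in DMSO, 4.95 ± 0.47 in FK, 6.14 ± 0.63 in Met and 6.40 ± 0.87 in Met+FK (SD, n = 3). With 3 libraries a group, the smallest p an exact two-sided permutation test can give is 0.1, so these ratios are described by their ranges.

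**Figure D4:**
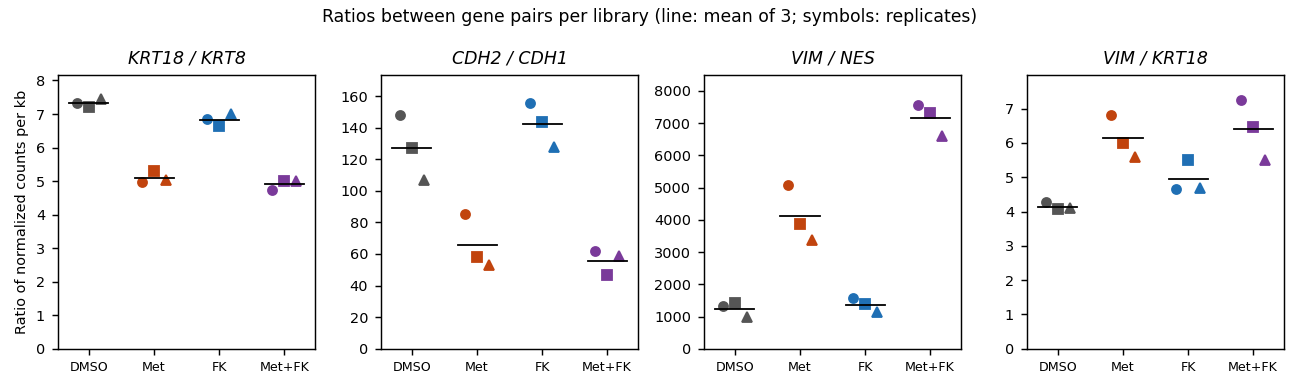
Ratios of normalized counts per kilobase (y axis, from 0) for 4 pairs of genes in the 12 libraries, by treatment (x axis). Symbols are replicates 1 to 3 and lines the means. The KRT18 to KRT8 and CDH2 to CDH1 ratios are lower, and the VIM to NES ratio higher, in all 6 libraries with metformin. NES was chosen on its fall in Met+FK against DMSO.

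Related genes were listed by family and pathway, and in Met against DMSO they moved both ways. Over all genes tested, 12.8% were called higher and 10.2% lower in this comparison. Of 50 other keratins, 5 were abundant enough to test and 2 were called lower: KRT15, a type I keratin of basal cells, from 2061 ± 130 to 1034 ± 152 (SD, n = 3; log2 fold change −1.0, adjusted p = 7.73e-06, limma-trend), and the hair keratin KRT32 (−2.08). KRT10, of suprabasal epidermis, had a mean of 849 and was not called. Among the 20 other cadherins, none of the 5 tested was called by limma-trend in Met, with CDH3 (P-cadherin) at a log2 fold change of −0.12, CDH24 at −0.57 (adjusted p = 0.000524) and CDH18 at 0.08. JUP, plakoglobin, was the 1 of 4 catenins called (−0.90), and CTNNA1, CTNNB1 and CTNND1 were at 0.17, −0.26 and −0.23.

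Tight junction genes were called in both directions, 3 of 12 tested being higher. OCLN (occludin) rose from 233 ± 12.7 to 628 ± 109 (SD, n = 3; log2 fold change 1.41, adjusted p = 7.82e-07), CLDN1 (claudin 1) by 0.98 and CLDN12 by 0.61, while the scaffold gene CGN (−0.65) fell. Of 8 desmosome genes tested, DSP (desmoplakin) was called higher (0.68) and PKP3 (plakophilin 3) lower (−0.89), with PPL at −0.31 and DSG2 at 0.51. With GC and length correction CLDN12, CGN and DSP were no longer called, at 0.36, −0.53 and 0.49. Of 5 epithelial regulators tested, ESRP1, a splicing factor of epithelial cells, rose from 6.65 ± 3.23 to 33.5 ± 11.9 (SD, n = 3; 2.19, adjusted p = 0.000411) and KLF4 by 1.10, and GRHL3 fell by 1.83 (log2 fold change −1.83, adjusted p = 1.16e-07). KLF5 was at −0.01.

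On the mesenchymal side, 1 of 5 tested transcription factors of the transition was called. This was SNAI1 (Snail), another repressor that binds E-boxes, which fell from 646 ± 27.4 to 328 ± 37.1 (SD, n = 3; log2 fold change −0.98, adjusted p = 4.50e-06). TCF3 was at −0.42 and FOXC1 at 0.38. Of 11 mesenchymal markers tested, 3 were called lower: TGFBI, a matrix protein induced by TGF-beta (−2.14), S100A4 (−1.19) and the hyaluronan receptor CD44 (−0.66), with AXL at −0.08. Of 6 other intermediate filament genes tested, the lamin genes LMNB1 (−1.19), LMNB2 (−0.88) and LMNA (−0.62) were called lower and PRPH (peripherin) higher (1.37, from 21 to 56.4). MACF1 (0.63) was the 1 of 5 filament linkers called, with PLEC at 0.30 and DST at 0.28. MACF1, at 0.27, and LMNA, at −0.43, lost their calls under GC and length correction. In FK against DMSO, 3 genes of all these lists were called, where 2.73% of all genes tested were called higher and 0.754% lower. KLF4 was higher (0.65, adjusted p = 0.00277), and PKP3 (−0.69, adjusted p = 0.0323) and TGFBI (−0.68, adjusted p = 0.0328) were lower. Of these, KLF4 (0.83) alone kept its call with GC and length correction.

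**Figure D5:**
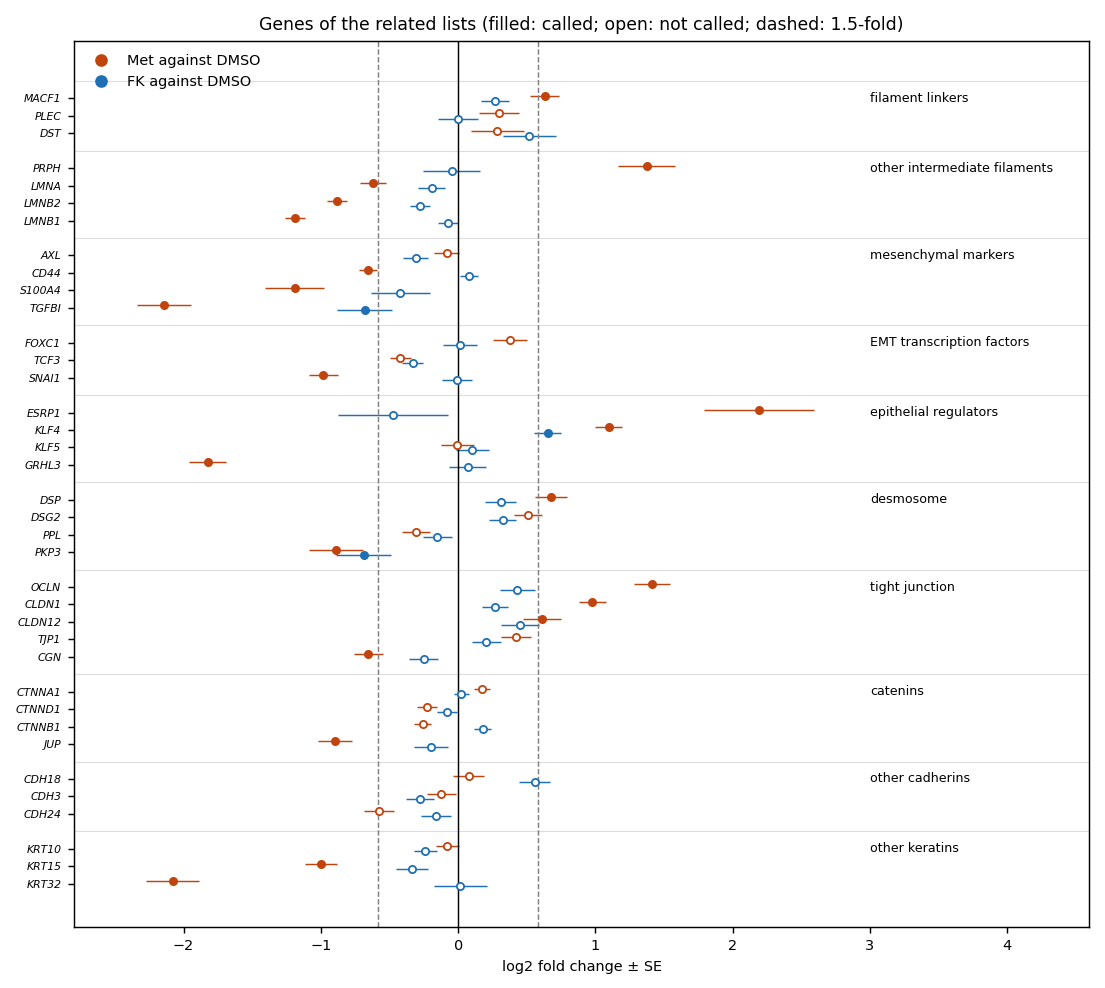
Log2 fold changes ± SE (x axis) of genes of each list (y axis) in Met and FK against DMSO. Filled points were called and open points were not, and dashed lines mark 1.5-fold. Met points spread from −2.14 for TGFBI to 2.19 for ESRP1, with both directions among tight junction genes and epithelial regulators, and most FK points are open.

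Over the 12 libraries, the genes whose log2 values ran most closely with 4 of the 10 were, by Pearson correlation, CCND1 (0.997), EIF4EBP2 (0.996) and TMPO-AS1 (0.989) for NES, KIF13B (0.983), HOMER2 (0.971) and AGAP1 (0.971) for CDH1, TBC1D13 (0.985), SYDE1 (0.985) and PTTG1IP (0.985) for KRT80, and GCC2 (0.996), TRIP11 (0.991) and UFM1 (0.991) for ZEB1. These values describe the 12 libraries, which share treatments, depth and GC trend.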

How the data were processed

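RNA of 12 KP4 libraries was analysed from 1 deposited table. According to the methods of the study, the authors used cutadapt for trimming, STAR for alignment to hg38, featureCounts for counting pairs per gene and DESeq2 for normalization. The deposited values are thus a signal, gene counts divided by a size factor per library. The annotation is not given in the sources used here. Read pairs were recovered from the smallest step, and 100% of values were whole within 0.01. Size factors were 0.867 to 1.21.

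The test was limma-trend (limma 3.58.1, R 4.3.3) on log2(normalized count + 1), a scale that understates changes of low genes, over the 15376 genes whose mean reached 10, all 12 libraries in 1 fit, two-sided, with Benjamini-Hochberg adjustment over all genes. Genes were called at an adjusted p under 0.05 and a fold over 1.5 (the interaction at the adjusted p alone). edgeR 4.0.16 (quasi-likelihood) and DESeq2 1.42.0 on the recovered counts were alternatives, and in Met against DMSO edgeR called 2142 genes higher and 1382 lower. The correction removed a loess trend on GC content and log length (GENCODE 44) per library. The chi-square between libraries of 1 treatment was 5.69 to 51.4 times its degrees of freedom, so none was taken for a copy.

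The labels number replicates 1 to 3 in each treatment. Deviations of same-numbered libraries correlated at 0.252, 0.42 and 0.219 between DMSO and FK and at 0.171, 0.2 and 0.226 between Met and Met+FK. The pairing is read from these correlations and not from the labels. The main test used no block and so took no account of it. A fit with the replicate number as a block was run as an alternative. On the log2 values no other 2 treatments passed 0.1 in every pair. After GC and length correction DMSO and FK still did (0.136, 0.171 and 0.131), Met and Met+FK did not (0.159, 0.0964 and 0.0738), and Met and FK did (0.117, 0.144 and 0.122).

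Members, lists and tests were chosen with earlier results of these data known. All 10 members are named. In the other lists, the genes called in Met or FK against DMSO are named, at most 4 per list and direction, with the 3 most abundant. Some genes this rule names are not reported here. Lengths and GC content are those of the GENCODE canonical transcript.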

Additional observations from a re-analysis of the deposited data

Results flagged for a closer look

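ZEB1 was singled out because the difference made by FK866 had opposite signs without and with metformin. The log2 ratio of the means was 0.44 for FK against DMSO, with all 3 FK libraries above the DMSO mean, and −0.07 for Met+FK against Met, with all 3 Met+FK libraries below the Met mean. By this comparison of libraries with a mean the difference between the effects was not tested, and as an interaction in limma-trend it was −0.48 (SE 0.30, adjusted p = 0.268). With GC and length correction the interaction of ZEB1 was −0.08. Groups of 3 libraries were too small for a test of outlying samples. FK replicate 2 had the highest ZEB1 count, 1272 against 720 and 777. In limma-trend the FK against DMSO value was 0.17 without it, 0.58 without FK replicate 1 and 0.53 without FK replicate 3. The chi-square per degree of freedom was 51.4 and 32.8 for FK pairs with replicate 2 and 11 for the other FK pair.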

How the results depend on the processing

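CDH1, KRT18, KRT19 and KRT80 in Met and in Met+FK against DMSO and NES in Met against DMSO kept their direction and call under all 13 alternatives and without any 1 library, as did CDH1, KRT19 and NES in Met+FK against FK. The values of KRT80 and NES share libraries with the comparisons on which these genes were chosen. Of 523 values from alternatives that keep all libraries, for 41 reported values, 490 kept direction and call, 9 lost and 19 gained a call, and 5 changed sign. Of 276 values without 1 library, 258 kept both. Sign changes were limited to values near 0: CDH2 in Met against DMSO was −0.0284 with GC and length correction, with or without the block, VIM in FK against DMSO was 0.0014 in both, and CDH1 in FK against DMSO was −0.0047 with DESeq2 and −0.0935 to 0.1585 without 1 library.

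In FK against DMSO, 3 members passed at the adjusted p alone (KRT8, KRT18 and KRT80, the last chosen on this comparison), where 1738 of all 15376 genes passed higher and 1513 lower, and 1 to 2 were called without 1 library, ZEB1 joining without DMSO replicate 2 (0.66). In Met+FK against Met, 1 member (NES) was called with the replicate block, with GC and length correction and with both. For the interaction, the pairing by replicate block gave 4 members, the block with GC and length correction 1, DESeq2 1, and fits without 1 library 0 to 3, the 3 being KRT18, KRT80 and VIM without FK replicate 1. Nothing is read from the calls of KRT80 among these, because its FK866 effect chose it. Elsewhere the block changed no call of a member. The causes were not tested.

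Over all genes, FK against DMSO called 420 higher and 116 lower, 164 and 31 with GC and length correction, 89 and 23 with only its own libraries fitted, 1065 and 137 without DMSO replicate 2 and 84 and 10 without DMSO replicate 1. The same comparison called 87 and 13 without FK replicate 2 and 955 and 198 without FK replicate 1. The interaction called 1 and 8 genes, 2380 and 2534 with the block and 263 and 432 with DESeq2. Met+FK against Met called 8 and 1, 18 and 7 with the block, 11 and 6 with GC and length correction and 17 and 15 with both. KRT19 and CDH1 have the fewest reads, which limits their precision most.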
